A study of Mus musculus with 2 samples.

Results

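The platelet-derived growth factor (PDGF) system of cultured mouse tumour pericytes was described gene by gene, as 2 receptors (Pdgfra and Pdgfrb) and 4 ligands (Pdgfa, Pdgfb, Pdgfc and Pdgfd). Each member was found in the deposited table by the Ensembl gene ID that carries its symbol, and all 6 had a row among 52636 gene IDs. The 2 RNA-seq libraries came from Cd248 null pericytes (1 library) and from Cd248 heterozygous pericytes (1 library), both on the C57BL/6 strain. The heterozygous cells carry 1 altered copy of Cd248 as well, and no wild-type library was analysed here. Cd248 (endosialin) encodes a membrane glycoprotein of mural and stromal cells, and the study asked about its role in tumour pericytes. Both cultures were primary cells sorted from tumours, grown on gelatin-coated plates and used at passages 10 to 12. The sorting markers, the tumour, the number of mice and the nature of the null allele were not given in the labels. The data columns are codes, of which one ends in N and was read as null and the other as heterozygote, so that every direction below rests on this reading.

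PDGF ligands are secreted dimers that bind and cross-link a pair of receptor tyrosine kinases. The alpha receptor takes the A, B and C chains, whereas the beta receptor takes the B and D chains. In vessels, endothelial cells release PDGF-B and pericytes answer through the beta receptor, which recruits them to the vessel wall, while the alpha receptor is widely used as a marker of fibroblasts. The A and B chains are cleaved inside the cell by furin-type convertases, whereas the C and D chains are secreted in a latent form and must be cut outside the cell before they bind.

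The levels are FPKM values, which scale fragments by transcript length and by library size, so that genes can be set side by side within a library. From the steps between low values, 1 FPKM on 1 kilobase was about 19.8 reads for null cells and 24.0 for heterozygous cells. Intervals given here are exact 95% Poisson or binomial intervals on the approximate reads at the longest annotated coding transcript. They cover counting error only, and with 1 library per genotype no difference has a replicate check and no test was run. Cd248 itself had an FPKM of 0.0592 in null cells and 20.98 in heterozygous cells, which goes with the reading of the columns. The pericyte label had mixed support from markers, since 8 of 16 pericyte and mural markers reached an FPKM of 1 in a library. Thy1 (884 in null and 359 in heterozygous cells) and the smooth muscle actin gene Acta2 (726 in null and 1367 in heterozygous cells) were abundant. Cnn1 (95.9 in null and 76.1 in heterozygous cells) and Mcam (8.68 in null and 11.2 in heterozygous cells) were also expressed in both libraries. So were, at lower levels, Cspg4 (2.59 in null and 5.02 in heterozygous cells) and Tagln (1.31 in null and 2.55 in heterozygous cells). Vtn and Abcc9 were listed at 0 in both libraries, and Rgs5 stood at 0.377 in null and 0.0173 in heterozygous cells. Kcnj8, Higd1b, Ndufa4l2, Anpep and Myh11 were also below an FPKM of 1 in both libraries. Notch3 and Des reached it in null cells alone.

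The 2 receptors lay on opposite sides. Pdgfrb was higher in null cells and Pdgfra was lower there. Of the 4 ligands, Pdgfc and Pdgfb were at least 2-fold lower in null cells, and Pdgfd and Pdgfa lay within 2-fold. The 2-fold mark was applied to the ratio of FPKM + 1, where the pseudocount of 1 shrinks the differences of low genes. On this scale 1 of 6 members was higher and 3 were lower. Among the 12773 genes reaching an FPKM of 1 in a library, 6.84% were at least 2-fold higher in null cells, 6.88% were at least 2-fold lower and 13.7% were past the mark either way. The median log2 ratio of null to heterozygote was -0.88 over the members and 0.03 over all genes compared. All 6 members passed the filter, and 5 of them reached an FPKM of 1 in both libraries, the exception being Pdgfb. These cultures are bulk samples, in which fewer cells of a type and less RNA per cell cannot be told apart. Beside all these values, the summed FPKM of 11 mesothelial markers was 18.01 in null cells and 1225 in heterozygous cells, and its part in them was not tested.

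**Figure D1:**
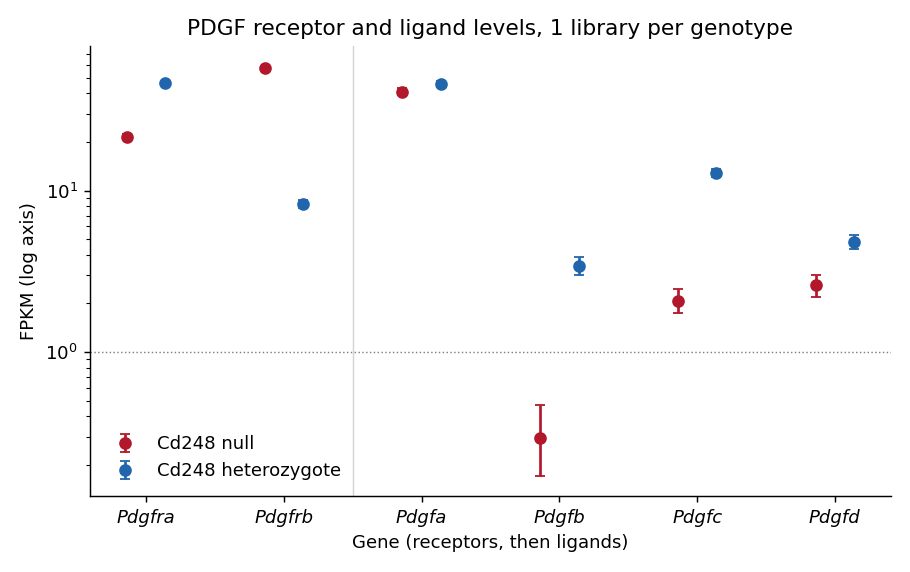
FPKM of each PDGF gene (log axis) in the Cd248 null library (red, left) and the Cd248 heterozygote library (blue, right); bars are 95% Poisson intervals on approximate reads and the dotted line marks an FPKM of 1. Pdgfrb is the only member with the null point above the heterozygote point, and the points of Pdgfa (40.9 in null and 45.6 in heterozygous cells) are the closest.

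Pdgfrb (ENSMUSG00000024620, chromosome 18) encodes the beta receptor, through which mural cells respond to PDGF-B and PDGF-D. Its FPKM was 57.3 in null cells, with an interval of 55.9 to 58.7, and 8.25 in heterozygous cells, with an interval of 7.76 to 8.76. In null cells the value was 6.95-fold higher (counting interval 6.51-fold to 7.42-fold), and the log2 ratio on the FPKM + 1 scale was 2.66. Only 0.673% of the genes compared had a ratio as high or higher, which placed Pdgfrb at position 86 from the top. By level, 81.4% of the genes compared lay below Pdgfrb in null cells and 37.7% in heterozygous cells.

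Pdgfra (ENSMUSG00000029231, chromosome 5) encodes the alpha receptor. Its FPKM was 21.6 in null cells (20.8 to 22.4) and 46.2 in heterozygous cells (45.1 to 47.2). In heterozygous cells the value was 2.14-fold higher (counting interval 2.05-fold to 2.23-fold). At the shortest annotated coding transcript, chosen after the data were seen, the interval would widen to 1.80-fold to 2.54-fold. The log2 ratio was -1.06. This value sits just past the 2-fold mark, and it lay at -0.99 when both columns were scaled to an equal sum and at -0.94 with a pseudocount of 5. A ratio as low or lower was found for 6.26% of the genes compared.

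The receptor with the higher level differed between the libraries. In the null library Pdgfrb made up 72.6% and Pdgfra 27.4% of the summed receptor FPKM, a level of Pdgfrb 2.65 times that of Pdgfra. In the heterozygote library Pdgfrb made up 15.2% and Pdgfra 84.8%, and the level of Pdgfra was 5.60 times that of Pdgfrb. The sum of both receptors was 78.9 FPKM in null cells and 54.4 FPKM in heterozygous cells, so the sum differed less than its make-up did. On the log2 scale of FPKM + 1, Pdgfra over Pdgfrb was -1.37 in null cells and 2.35 in heterozygous cells, a difference of -3.72. Across the alternatives computed this difference kept its sign, between -3.87 and -3.18.

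**Figure D2:**
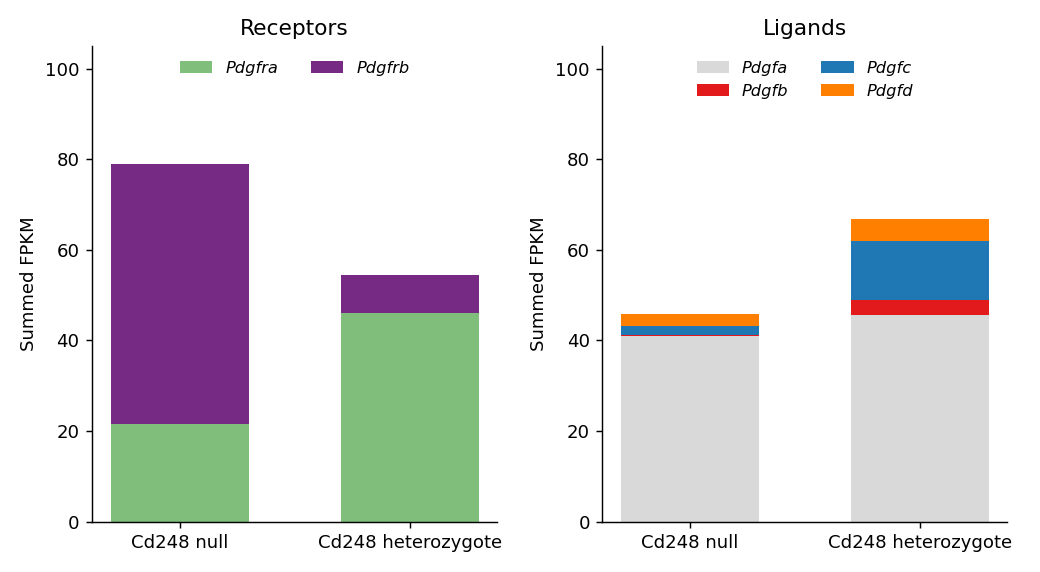
Summed FPKM of the 2 receptors (left panel) and the 4 ligands (right panel), stacked by gene, with the Cd248 null library left of the Cd248 heterozygote library in each panel. Pdgfrb fills 72.6% of the receptor bar of null cells and 15.2% of that of heterozygous cells, while Pdgfa fills most of both ligand bars.

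Pdgfa (ENSMUSG00000025856, chromosome 5) encodes the A chain, whose homodimer signals through the alpha receptor alone. It was the most abundant ligand in both libraries and the member that differed least. Its FPKM was 40.9 in null cells (38.9 to 42.9) and 45.6 in heterozygous cells (43.7 to 47.5). In heterozygous cells the value was 1.12-fold higher (counting interval 1.05-fold to 1.19-fold), and the log2 ratio was -0.15. A distance from 0 at least as large was found for 75.6% of the genes compared. The share of Pdgfa in the summed ligand FPKM was 89.2% in null cells and 68.4% in heterozygous cells, and this gap came with the lower levels of the other ligands in null cells.

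Pdgfc (ENSMUSG00000028019, chromosome 3) encodes the C chain, a latent ligand of the alpha receptor with an inhibitory CUB domain. Its FPKM was 2.08 in null cells (1.75 to 2.44) and 12.9 in heterozygous cells (12.1 to 13.7). In heterozygous cells the value was 6.21-fold higher (counting interval 5.22-fold to 7.44-fold). The log2 ratio was -2.18, the lowest of the members, and 1.86% of the genes compared had a ratio as low or lower. Pdgfc held 4.53% of the summed ligand FPKM in null cells and 19.3% in heterozygous cells.

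Pdgfb (ENSMUSG00000000489, chromosome 15) encodes the B chain, which binds both receptors and is classically made by endothelium and platelets. It was the member with the lowest level in both libraries. Its FPKM was 0.294 in null cells, about 17 reads, with an interval of 0.172 to 0.471. It was 3.40 in heterozygous cells, about 240 reads, with an interval of 2.98 to 3.86. In heterozygous cells the value was 11.6-fold higher (counting interval 7.06-fold to 20.2-fold). At the shortest annotated coding transcript, chosen after the data were seen, the null value would stand for 2 reads and the interval would widen to 2.94-fold to 99.6-fold. The log2 ratio was -1.77, smaller in size than that of Pdgfc although the fold was larger, since the pseudocount weighs more on low values. It was -3.15 with a pseudocount of 0.1 and -0.67 with a pseudocount of 5. Pdgfb held 0.642% of the summed ligand FPKM in null cells and 5.10% in heterozygous cells.

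Pdgfd (ENSMUSG00000032006, chromosome 9) encodes the D chain, a latent ligand of the beta receptor. Its FPKM was 2.59 in null cells (2.204 to 3.02) and 4.82 in heterozygous cells (4.33 to 5.34). In heterozygous cells the value was 1.86-fold higher (counting interval 1.54-fold to 2.26-fold). At the shortest annotated coding transcript, chosen after the data were seen, the interval would widen to 1.45-fold to 2.41-fold. The log2 ratio was -0.70 and lay within the 2-fold mark. Its share of the ligand sum was close in the 2 libraries, at 5.65% in null cells and 7.22% in heterozygous cells.

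By level, the order in null cells was Pdgfrb, Pdgfa, Pdgfra, Pdgfd, Pdgfc and Pdgfb. The counting intervals of Pdgfd and Pdgfc overlap there, and those of the other neighbours in the order do not. In the heterozygote library the order was Pdgfra, Pdgfa, Pdgfc, Pdgfrb, Pdgfd and Pdgfb, and the intervals of Pdgfra and Pdgfa overlap. Summed over the 4 genes, ligand mRNA was 45.8 FPKM in null cells and 66.7 FPKM in heterozygous cells. The receptor sum was 1.72 times the ligand sum in null cells and 0.816 times in heterozygous cells. Pdgfa stood at 8.24 times the sum of the other ligands in null cells and at 2.16 times in heterozygous cells.

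**Figure D3:**
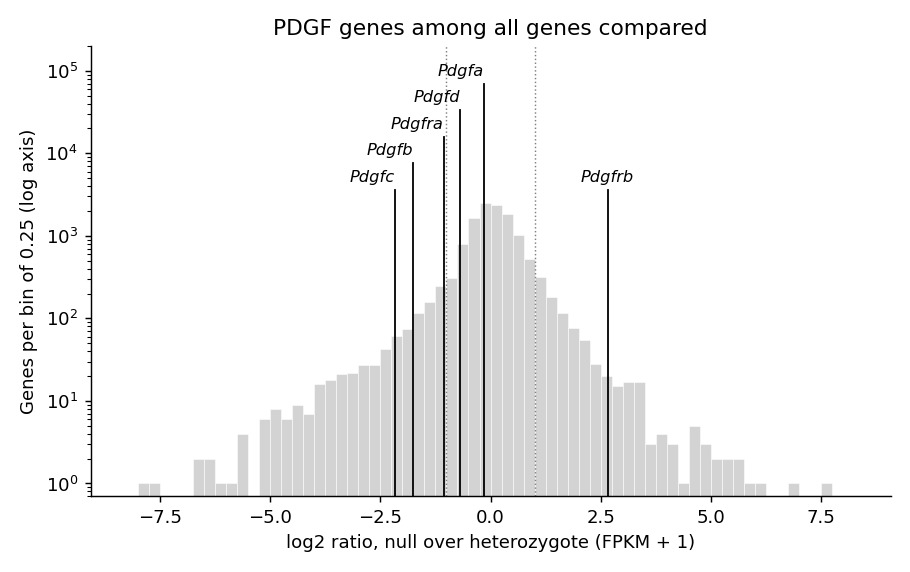
Histogram of the log2 ratio of null to heterozygote (FPKM + 1) over the 12773 genes compared, with a log count axis; black lines mark the PDGF genes and dotted lines the 2-fold marks. Pdgfrb at 2.66 and Pdgfc at -2.18 lie in the outer parts of the distribution, and Pdgfa at -0.15 lies near its centre.

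The DNA just upstream of the annotated start is shown for Pdgfc and Pdgfra, the members at least 2-fold lower in null cells for which the RefSeq table (GRCm38.p6) gives a window clear of the gene's own exons. Each line holds 250 bases, read 5′ to 3′ on the gene's strand. The stretch lies at chr3:81036166-81036415 on the plus strand for Pdgfc and at chr5:75152001-75152250 on the plus strand for Pdgfra. The genome build in the submitters' processing notes is mm8, so these coordinates are those of the RefSeq table and not of the data. Capitals mark a CArG box, the sequence class bound by serum response factor, which takes part in the growth factor response.
Pdgfc: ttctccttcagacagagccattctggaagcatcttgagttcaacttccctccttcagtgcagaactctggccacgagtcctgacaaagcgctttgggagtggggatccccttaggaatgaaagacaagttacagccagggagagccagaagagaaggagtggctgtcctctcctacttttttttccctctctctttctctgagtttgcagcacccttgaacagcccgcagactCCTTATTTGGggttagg
Pdgfra: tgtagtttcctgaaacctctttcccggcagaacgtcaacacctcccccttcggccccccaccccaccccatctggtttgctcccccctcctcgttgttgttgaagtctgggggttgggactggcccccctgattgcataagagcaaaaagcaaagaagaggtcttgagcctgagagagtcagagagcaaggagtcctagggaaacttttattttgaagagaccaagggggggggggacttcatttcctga
The table holds windows for Pdgfra, Pdgfa, Pdgfc and Pdgfd. The 4 motifs searched in them on both strands were the TATA box (TATAAA), the CCAAT box (CCAAT), the GC box (GGGCGG) and the CArG box, in windows from 250 bases before to 50 bases after the start. The Pdgfc window held a CArG box that begins 17 bases upstream of the start. It reads as a CArG box on both strands and is 1 stretch of sequence. Of 32851 windows in the table, 1.63% held a CArG box. The Pdgfra window held none of the motifs. The Pdgfd window held a TATA box, as did 13.6% of all windows, and the Pdgfa windows held GC boxes, as did 35.7%. A CCAAT box, present in 37.4% of all windows, was found in none of these members' windows. A match in letters is a description of sequence, and binding was not measured.

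The proteases that process PDGF ligands differed in part. Of 7 genes, 6 were expressed, with an FPKM of at least 1 in a library. None was at least 2-fold higher in null cells, 2 were lower and 4 lay within 2-fold, with a median log2 ratio of -0.32, or -0.64 with no filter on low values. The convertase genes Pcsk5 (0.0649 in null and 5.63 in heterozygous cells) and Pcsk6 (7.65 in null and 27.2 in heterozygous cells) were the lower pair, while Furin stood at 70.6 in null and 54.8 in heterozygous cells. Pcsk5 passed the filter through heterozygous cells alone. Plat, which encodes the tissue plasminogen activator that can activate PDGF-C, stood at 42.1 in null and 23.8 in heterozygous cells. Plau, the urokinase gene whose product can activate PDGF-D, stood at 25.003 in null cells and 39.4 in heterozygous cells. Of 8 genes for proteins that bind or retain ligands or growth factors at the surface and in the matrix, 7 were expressed, 2 were higher, none lower and 5 within 2-fold, with a median of 0.46. Centred on the chromosome median, 1 was higher and the median was 0.05, and with a pseudocount of 5 also 1 was higher. The neuropilin gene Nrp1 (26.9 in null and 9.19 in heterozygous cells) and the heparan sulphate enzyme gene Ndst1 (27.1 in null and 12.2 in heterozygous cells) were higher in null cells. Lrp1, an endocytic receptor that works with the beta receptor, stood at 1041 in null and 716 in heterozygous cells, and the matrix protein gene Sparc at 1882 in null and 2667 in heterozygous cells. Past the mark were 33.3% of the expressed protease genes and 28.6% of the expressed binding genes, against 13.7% of all genes compared.

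Genes for signalling proteins that act close to activated PDGF receptors were next. Of 25, 24 were expressed, with 2 higher in null cells, 2 lower and 20 within 2-fold, and a median log2 ratio of 0.08. The 16.7% past the mark is near the 13.7% of all genes compared. Fyn, a Src family kinase gene (60.3 in null and 25.5 in heterozygous cells), and Stat3 (140 in null and 63.3 in heterozygous cells) were higher. The adaptor gene Grb10 (29.8 in null and 207 in heterozygous cells) and the kinase gene Pik3cb (6.35 in null and 15.8 in heterozygous cells) were lower. Grb10 is an imprinted gene. Of 13 negative regulators of receptor tyrosine kinases, all expressed, 1 was higher, 2 were lower and 10 lay within 2-fold, with a median of 0.11. With a pseudocount of 5, 0 were higher and 1 was lower, and centred on the chromosome median the list median was -0.09. Socs3 (80.6 in null and 38.8 in heterozygous cells) was higher in null cells. The feedback inhibitor gene Spry1 (3.25 in null and 11.6 in heterozygous cells) and the receptor phosphatase gene Ptprj (3.27 in null and 7.86 in heterozygous cells) were lower. Spry2 (68.4 in null and 41.5 in heterozygous cells) and Spry4 (1.58 in null and 3.37 in heterozygous cells) differed in opposite directions. Both lay within 2-fold on the FPKM + 1 scale. Past the mark as reported were 23.1% of these negative regulators, against 13.7% of all genes compared.

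Genes known as early responses to PDGF in fibroblasts did not share a direction. Of 17, all expressed, 4 were at least 2-fold higher in null cells, 3 were lower and 10 lay within 2-fold, with a median of 0.28. That put 41.2% past the mark, against 13.7% of all genes compared. The lower genes sat just past the mark: 0 were lower under equal-sum scaling and 1 when centred on the running median by level, and 2 were higher and 1 lower with a pseudocount of 5. The chemokine gene Ccl7 (103 in null and 13.1 in heterozygous cells), the chemokine gene Cxcl1 (3.97 in null and 0.0591 in heterozygous cells) and the transcription factor gene Egr2 (5.59 in null and 1.47 in heterozygous cells) had the highest ratios as reported. The phosphatase genes Dusp6 (35.1 in null and 73.7 in heterozygous cells) and Dusp1 (64.1 in null and 131 in heterozygous cells) and the urokinase receptor gene Plaur (75.4 in null and 156 in heterozygous cells) had the lowest. Cxcl1 passed the filter through null cells alone. Srf, the gene of serum response factor, stood at 28.7 in null cells and 45.2 in heterozygous cells, within 2-fold.

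**Figure D4:**
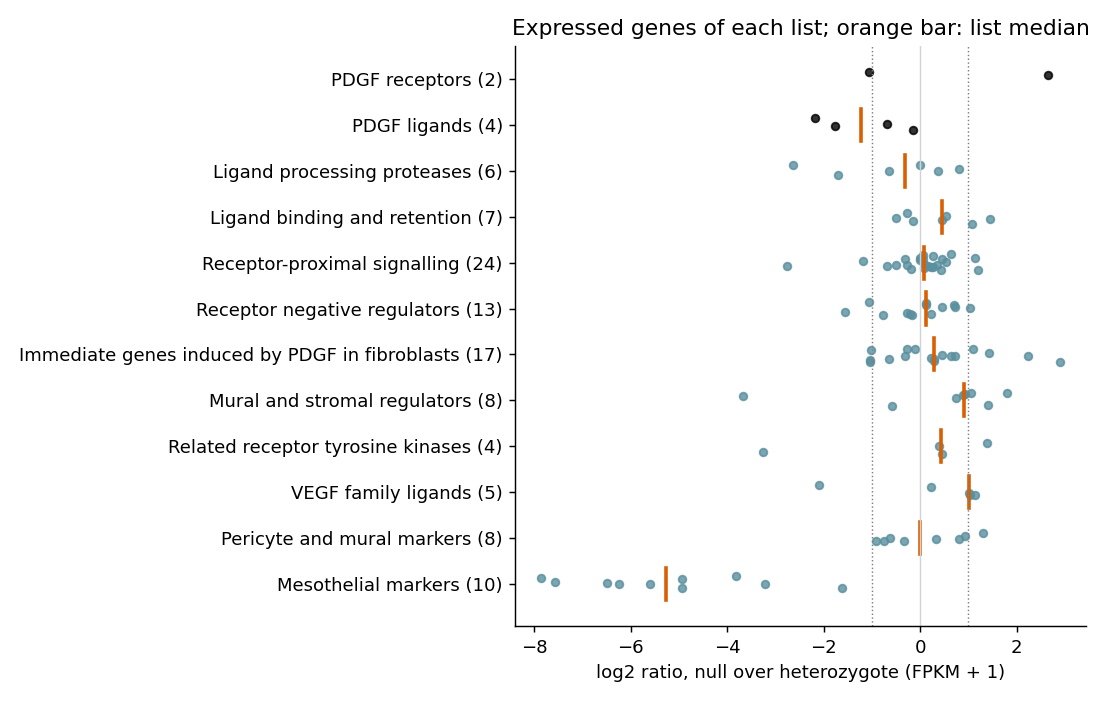
Log2 ratio of null to heterozygote (FPKM + 1) for each expressed gene of the PDGF members (black) and of 10 other lists (blue-green), with the number expressed in brackets; orange bars are medians for lists of more than 2 genes and dotted lines the 2-fold marks. The 24 expressed signalling genes have a median of 0.08, whereas every expressed mesothelial marker lies left of the lower 2-fold mark. Apart from Msln and Krt19, these markers reached an FPKM of 1 in heterozygous cells alone.

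Transcription regulators of mural and stromal cells were set beside Pdgfrb. Of 12, 8 were expressed, 3 were higher in null cells, 1 was lower and 4 lay within 2-fold, with a median log2 ratio of 0.90. With a pseudocount of 5, 0 were higher and the median was 0.49, while 2 were higher when centred on the running median by level and 4 under equal-sum scaling. The forkhead genes Foxc2 (5.10 in null and 0.750 in heterozygous cells) and Foxc1 (8.24 in null and 2.47 in heterozygous cells) and the gene Ebf1 (2.92 in null and 0.880 in heterozygous cells) were higher. Tbx2 was lower (0.432 in null and 17.2 in heterozygous cells), and Hes1, a Notch effector gene, stood at 31.5 in null and 47.7 in heterozygous cells. Foxc2 and Ebf1 passed the filter through null cells alone, and Tbx2 through heterozygous cells alone. With no filter the median of the list was 0.81. Other receptors of related classes and the receptor-like gene Pdgfrl (1.06 in null and 0.507 in heterozygous cells) were mostly low. Of 7, 4 were expressed, 1 was higher, 1 lower and 2 within 2-fold, with a median of 0.42. With a minimum FPKM of 5 none was higher and the median, -3.26, was that of Flt4 alone, and with a pseudocount of 5 none was higher. Csf1r, which encodes the receptor of macrophage colony-stimulating factor, was higher in null cells (2.099 in null and 0.195 in heterozygous cells), and Flt4 was lower (1.55 in null and 23.5 in heterozygous cells). Csf1r passed the filter through null cells alone. Kit was listed at 0 in both libraries, and Kdr stood at 0.0578 in null and 0.696 in heterozygous cells. The VEGF ligands, relatives of PDGF, had 3 of 5 members higher in null cells, 1 lower and 1 within 2-fold, with a median of 1.01. With a pseudocount of 5, or centred on the chromosome median or by level, 2 were higher. The VEGF median was 0.73 with a pseudocount of 5, and Vegfa (1.03) and Vegfc (1.01) sat just past the mark as reported. The share past the mark was 50% of the expressed regulators, 50% of the expressed related receptors and 80% of the VEGF ligands. Over all genes compared it was 13.7%. Vegfd (49.4 in null and 21.9 in heterozygous cells), Vegfa (226 in null and 110 in heterozygous cells) and Vegfc (14.3 in null and 6.60 in heterozygous cells) were higher, and Pgf was lower (2.50 in null and 13.999 in heterozygous cells).

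Markers of other cell types moved beside the PDGF genes. Of 11 mesothelial markers, 10 were expressed and all 10 were at least 2-fold lower in null cells, with a median log2 ratio of -5.27, or -4.93 over all 11 with no filter on low values. Their summed FPKM was 18.01 in null cells and 1225 in heterozygous cells. Upk3b (0.430 in null and 330.2 in heterozygous cells), Krt18 (0.0361 in null and 196 in heterozygous cells) and Upk1b (0.314 in null and 118 in heterozygous cells) had the lowest ratios. In the null library Lrrn4, Gpm6a, Muc16 and Krt8 were listed at 0, and none of the 11 was at 0 in heterozygous cells. Epithelial markers, which share keratins with that list, had 3 of 11 expressed, all lower, and 2 lower with a pseudocount of 5. Krt18 and Krt14 passed the filter through heterozygous cells alone. The median was -3.82 over the expressed genes and -0.40 over those above 0 in a library. The sums were 14.6 in null and 414 in heterozygous cells. Epcam was listed at 0 in both libraries and Cdh1 stood at 0.0180 in null and 0.0594 in heterozygous cells. Fibroblast markers had 12 of 14 expressed, 4 higher, 3 lower and 5 within 2-fold, with a median of 0.19 (0.78 with a minimum FPKM of 5) and sums of 8008 in null cells and 6071 in heterozygous cells. Mfap5 (166 in null and 17.8 in heterozygous cells) and Ly6a (274 in null and 39.8 in heterozygous cells) were higher, and Cd34 (0.0230 in null and 11.3 in heterozygous cells) and Dcn (20.8 in null and 117 in heterozygous cells) were lower. Cd34 passed the filter through heterozygous cells alone. Past the mark were 100% of the expressed mesothelial and epithelial markers and 58.3% of the expressed fibroblast markers, against 13.7% of all genes compared.

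Markers of the classical sources of PDGF-B were at or near 0 in both cultures, apart from the few named here. Of 11 endothelial markers, 2 were expressed, namely Esam (0.201 in null and 64.0 in heterozygous cells) and Egfl7 (1.88 in null and 0.828 in heterozygous cells). Esam was lower and Egfl7 within 2-fold. Esam passed the filter through heterozygous cells alone, and the median of the endothelial markers above 0 in a library was -0.08. The list summed to 2.64 in null and 65.8 in heterozygous cells. The defining endothelial genes were at or near 0, with Pecam1 at 0.184 in null and 0.0337 in heterozygous cells and Cdh5 listed at 0 in null cells and at 0.0576 in heterozygous cells. Of 7 platelet and megakaryocyte markers, 2 were expressed, both within 2-fold. These were Itga2b (8.15 in null and 4.80 in heterozygous cells) and Itgb3 (0.826 in null and 1.39 in heterozygous cells). Their median was 0.14, or -0.13 over the listed markers above 0 in a library. The list summed to 9.15 in null and 6.47 in heterozygous cells. Pf4 and Ppbp were listed at 0 in both libraries. Of 11 myeloid markers, 4 were expressed, 2 were higher, none lower and 2 within 2-fold, with a median of 0.94 and sums of 24.5 in null and 16.5 in heterozygous cells. None was higher with a pseudocount of 5 (median 0.42) or with a minimum FPKM of 5 (median -0.07). Over the myeloid markers above 0 in a library, the median was 0.28. Lyz2 (4.26 in null and 0.507 in heterozygous cells) and Csf1r were higher in null cells, while Adgre1 was listed at 0 in both libraries and Ptprc at 0 in null cells. Lyz2 and Csf1r both passed the filter through null cells alone. The 2 within 2-fold were Cd14 (14.7 in null and 10.1 in heterozygous cells) and Cd68 (3.19 in null and 5.49 in heterozygous cells). Cd14 held the largest part of both sums, and Cd68 was higher in heterozygous cells. The share past the mark was 50% of the expressed endothelial, 0% of the expressed platelet and 50% of the expressed myeloid markers. It was 13.7% of all genes compared. Pericyte and mural markers had 1 of 8 expressed members higher, Thy1, none lower and 7 within 2-fold. That put 12.5% of them past the mark, near the share of all genes compared. Under equal-sum scaling, and with a pseudocount of 0.1, 3 were higher, and 2 when centred on the running median by level. Their median was -0.003, or -0.34 with a minimum FPKM of 5, and their sums were 1723 in null and 1823 in heterozygous cells. Most of both sums came from 2 genes that differed in opposite directions. These were Thy1 (884 in null and 359 in heterozygous cells) and Acta2 (726 in null and 1367 in heterozygous cells).

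For each member past the 2-fold mark, the 3 protein-coding genes nearest to it in the plane of log2(FPKM + 1) of the 2 libraries were looked up. With 2 libraries this likeness means only a similar pair of levels. Nearest to Pdgfrb were Fzd1 (58.8 in null and 8.33 in heterozygous cells), Lhfpl2 (56.5 in null and 6.71 in heterozygous cells) and Igfbp4 (61.9 in null and 9.94 in heterozygous cells). Nearest to Pdgfra were Ldhb (21.8 in null and 44.0 in heterozygous cells), Tfeb (21.1 in null and 43.3 in heterozygous cells) and Ripk3 (20.4 in null and 48.7 in heterozygous cells). Alcam (1.71 in null and 12.8 in heterozygous cells), Vnn1 (2.096 in null and 11.2 in heterozygous cells) and Pkp2 (1.75 in null and 13.9 in heterozygous cells) lay nearest to Pdgfc. Mest (0.284 in null and 3.51 in heterozygous cells), Gimap9 (0.296 in null and 3.54 in heterozygous cells) and Stxbp6 (0.259 in null and 3.59 in heterozygous cells) lay nearest to Pdgfb.

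Directions of the members were the same under every alternative computed for them. Pdgfrb stayed between 2.23 and 2.78, Pdgfc between -2.58 and -1.34 and Pdgfd between -0.87 and -0.37. Pdgfra ranged from -1.26 to -0.94 and crossed the 2-fold mark under the settings named above. Pdgfb ranged from -3.15 to -0.67, and its value past the mark was lost with a pseudocount of 5, while a minimum FPKM of 5 removed Pdgfb and Pdgfd from the genes compared.

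**Figure D5:**
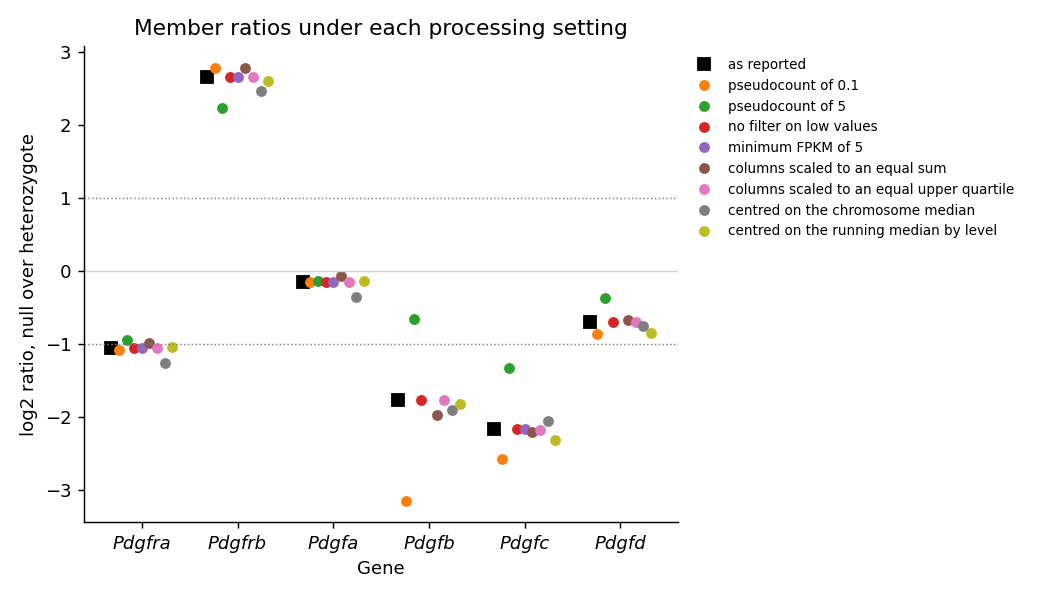
Log2 ratio of null to heterozygote for each PDGF gene (x axis) under the reported setting (black square) and each alternative (coloured circles); dotted lines are the 2-fold marks. Pdgfrb lies above 0 and the other members below it in each setting, and the points of Pdgfb spread most, between -3.15 and -0.67.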

How the data were processed

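RNA-seq was done on 2 libraries, made from 2 µg of total RNA each with a TruSeq RNA kit after Trizol extraction, per the labels' protocols. The authors deposited FPKM values for 52636 gene IDs, with 1 column per library. Bowtie2 (2.2.3) and the build mm8 are named in the submitters' processing notes, and the counter, annotation and normalizing total are, for this table, not given in the sources used here. IDs were matched to GENCODE M21 symbols (52403 matched), and the row with the higher mean stood for a repeated symbol. Depth was read from whole multiples in genes with 1 transcript: below 10 reads, 98.6% of values in null cells and 98.5% in heterozygous cells were whole within 0.02 reads. The totals came to 19786167 reads for null cells and 23982191 for heterozygous cells. Log2 ratios used a pseudocount of 1 and genes reaching an FPKM of 1 in a library. The computations used Python 3.11.15 with numpy 2.4.6, pandas 2.3.3 and scipy 1.17.1, and were tested on simulated data. Alternatives changed the pseudocount, the filter, the scaling, the centring and the transcript length. Named genes were the members, Cd248, Csf1r, Kit, Kdr, up to 3 expressed genes per direction of each list and the nearest genes. Marker genes below an FPKM of 1, Msln, Pdgfrl, Srf, Cnn1 and Mcam were named after their values were seen. The members and the 17 lists were chosen with earlier results of these data known.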

Additional observations from a re-analysis of the deposited data

How the results depend on the processing

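No paired analysis was possible because there was 1 library per genotype, and for the same reason no library could be left out. With a pseudocount of 0.1 the log2 ratios were 2.78 for Pdgfrb, -3.15 for Pdgfb and -2.58 for Pdgfc, and the receptor difference was -3.87. With a pseudocount of 5 they were -0.94 for Pdgfra, 2.23 for Pdgfrb, -0.67 for Pdgfb, -1.34 for Pdgfc and -0.37 for Pdgfd, the receptor difference was -3.18, and 2 members were past the 2-fold mark, since a larger constant shrinks low genes. Scaling to an equal sum gave 2.78 for Pdgfrb and left 3 members past the mark. A minimum FPKM of 5 also left 3, because Pdgfb was removed by it. Centring on the chromosome median gave -1.26 for Pdgfra, 2.46 for Pdgfrb and -0.36 for Pdgfa. Weighting ligand shares by transcript length gave 83.8% for Pdgfa, 7.27% for Pdgfc and 8.07% for Pdgfd in null cells, against 57.1%, 27.6% and 9.18% in heterozygous cells. The number of all genes past the mark depended on the settings, with 1306 higher and 1090 lower at a pseudocount of 0.1, and 400 higher and 369 lower at 5, against 874 higher and 879 lower as reported. Scaling to an equal sum gave 1195 higher and 911 lower, and a minimum FPKM of 5 gave 622 higher and 523 lower. The number of genes compared changed as well, to 13459 under equal-sum scaling and 9749 with a minimum FPKM of 5, against 12773 as reported. Depth limits the values in null cells of Cd248, at about 3 reads, and of Pdgfb, at about 17.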

Other observations

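The protein-coding genes next to the members in the RefSeq gene order (GRCm38.p6) were looked up after the members' values had been seen, and those named here were chosen from them with their values known. Csf1r, the gene after Pdgfrb, was higher in null cells as well (2.099 in null and 0.195 in heterozygous cells), whereas the next one, Hmgxb3, stood at 9.94 in null and 7.87 in heterozygous cells. Prkar1b, which encodes a regulatory subunit of protein kinase A and adjoins Pdgfa, was lower in null cells (2.02 in null and 29.2 in heterozygous cells), with a log2 ratio of -3.32, while Pdgfa itself had a ratio of -0.15. Beside Pdgfb, the polycomb gene Cbx7 stood at 3.82 in null cells and 0.534 in heterozygous cells, a log2 ratio of 1.65 and opposite in sign to that of Pdgfb. Casp12, next to Pdgfd, had 24.9 in null cells and 7.12 in heterozygous cells, a log2 ratio of 1.67, and Pdgfd had -0.70. Over all genes compared on a member's chromosome, the median log2 ratio was 0.20 on chromosomes 5 and 18, 0.15 on chromosome 15, 0.06 on chromosome 9 and -0.12 on chromosome 3.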
